A study of Mus musculus with 6 samples.

Results

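The mouse mitochondrial chromosome carries 37 genes, and all of them were present among the 57180 genes of the table as the entries whose symbol starts with mt-. They comprise 13 protein genes, 2 ribosomal RNA (rRNA) genes and 22 transfer RNA (tRNA) genes, and no other gene of the table lies on that chromosome. Their RNA was measured in GC-1 spg cells, an immortalised mouse line derived from spermatogonia, by sequencing of poly(A)-selected RNA. The comparison was between 3 libraries whose genotype label is SNHG1 overexpression and 3 libraries of cells that received the vector alone, all taken 24 h after transfection. SNHG1 is a long non-coding RNA whose introns hold small nucleolar RNAs. Both groups share the cell line, the tissue label testis, the cell type label Germ Cell and the treatment label Non-obstructive azoospermia. The promoter of the construct and the number of cultures behind the replicates are not stated, so p-values here speak only to the spread among these 6 libraries, and that spread may be technical.

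Mitochondrial DNA is transcribed from both strands into long RNAs that span many genes. The tRNAs lie between most of the rRNA and protein genes, and cutting them out frees the neighbouring RNAs, most of which then receive a short poly(A) tail. The proteins made from this DNA are core subunits of respiratory complexes I, III and IV and of the ATP synthase, while the enzymes that copy, transcribe, process and translate it are made from nuclear genes and imported. The heavy-strand transcript supplies both rRNAs, 12 of the 13 protein genes and 14 of the 22 tRNAs here, and the light-strand transcript supplies mt-Nd6 and the other 8 tRNAs.

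The compact layout bears on how these genes can be counted. Coordinates of all 37 in the table were identical to those of GENCODE M21, the annotation of the GRCm38 build, and the sequences below come from that annotation. The coding sequences of mt-Atp8 and mt-Atp6, subunits of the ATP synthase, share 43 bases at chrM:7927-7969, printed here with the start codon of mt-Atp6 and the stop codon of mt-Atp8 in capitals.
mt-Atp8 and mt-Atp6 overlap: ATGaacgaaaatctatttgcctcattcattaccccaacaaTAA
In mt-Nd5 and mt-Nd6, subunits of complex I on opposite strands, the last 14 bases are shared, and each gene is shown 5′ to 3′ in its own sense with those bases in capitals.
mt-Nd5 last 20 bases: actcaaTTAATCTCGAGTAA
mt-Nd6 last 20 bases: tcgagaTTACTCGAGATTAA
Reads of one member of such a pair that fall in the shared bases cannot be assigned by position, and whether the authors counted by strand is not known from the labels.

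The poly(A) tail is part of the message in 3 of the protein genes. The DNA of mt-Co3, mt-Nd4 and mt-Cytb ends on a single T after the last full codon, and the stop codon is completed by the tail. The last bases of these genes are shown with that T in capitals, beside mt-Co1, whose stop codon is encoded in full and is in capitals.
mt-Co3: catttattgatgaggatctT
mt-Nd4: aattacaggcctgacaataT
mt-Cytb: aatactaaaattatatccaT
mt-Co1: cctatgtaaaagtaaaaTAA
GTG is the annotated first codon of mt-Nd1, ATA that of mt-Nd2, ATT that of mt-Nd3 and ATC that of mt-Nd5, and the other 9 protein genes begin with ATG.

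Total counts ran from 15521900 to 21095427 per library, and a count of 0 allows up to 3 counts, or 0.142 to 0.193 CPM (counts scaled to a common library total). This limit reflects counting error alone, because reads copied by PCR do not count separate molecules. Snhg1 itself had 467, 555 and 487 counts in the libraries labelled overexpression and 464, 402 and 385 in the vector libraries. Those values overlap, and the difference was 0.14 ± 0.10 on the log2 scale (SE, edgeR adjusted p = 0.52), so the counts do not separate the groups by the labelled gene and "overexpression" below means the label. Of 16 germ cell markers, 2 (Gfra1 and Etv5) averaged 1 CPM or more and 8 had no count in any library, among them Ddx4, Kit, Zbtb16 and Sohlh1. Mesenchymal markers were detected at 7 of 8, with Thy1 at 0, and summed to 24200–25300 CPM in the overexpression libraries against 29100–30800 CPM in the vector libraries. Macrophage and blood markers averaged 1 CPM or more for 5 of 10 and summed to 44.1–49.7 against 36.8–37.8 CPM, with Hbb-bs and Tyrobp at 0. Sertoli cell markers (3 of 7 at 1 CPM or more) summed to 95.4–106 against 95.3–112 CPM and Leydig cell markers (1 of 6) to 2.28–3.02 against 2.32–2.83 CPM. The part of these marker differences in the results below was not tested.

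The protein genes of the mitochondrial chromosome spanned a wide range of abundance. By count, mt-Cytb ranked 6 to 8 among all genes of a library, mt-Nd4l 148 to 197, mt-Nd3 1201 to 1530 and mt-Nd6 10195 to 11077. Levels between genes are given as FPKM, the authors' count scaled by gene length and by the library total. Highest was mt-Co1, the catalytic subunit of cytochrome c oxidase, with a median of 6002 FPKM over the 6 libraries (5134 to 6852), and by count it was the second most abundant gene of the whole table in each library. After it came mt-Atp8 at a median of 5227 FPKM (4552 to 6041), below mt-Co1 within each of the 6 libraries although their ranges overlap. Next stood mt-Co2 at 4033 FPKM, above both mt-Co3 at 3719 and mt-Cytb at 3710 within each library. The order of mt-Co3 and mt-Cytb changed from library to library.

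The complex I genes were lower and spread out. Their median levels were 2011 FPKM for mt-Nd4l, 1601 for mt-Nd2, 1229 for mt-Nd1, 1157 for mt-Nd4, 588 for mt-Nd5 and 462 for mt-Nd3. Although mt-Nd4l (297 bases) and mt-Nd4 (1378 bases) lie on the same messenger, their FPKM ratio was 1.68 to 1.81. Ranks by FPKM of short genes, mt-Atp8 (204 bases) included, are therefore not ranks of messengers. The lowest protein gene was mt-Nd6, the only one on the light strand, at a median of 14.4 FPKM (9.78 to 16.8). Per length, mt-Nd5, which it meets end to end, stood 32.9 to 54.9 times higher. How fully poly(A) selection captured mt-Nd6 is not known, so this is not the abundance of light-strand RNA in the cells. The rRNAs were listed far below the messages, at medians of 58.8 FPKM for mt-Rnr2 (16S) and 37.9 FPKM for mt-Rnr1 (12S). Those levels are after poly(A) selection and are not the amounts of ribosomal RNA in the cells.

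**Figure D1:**
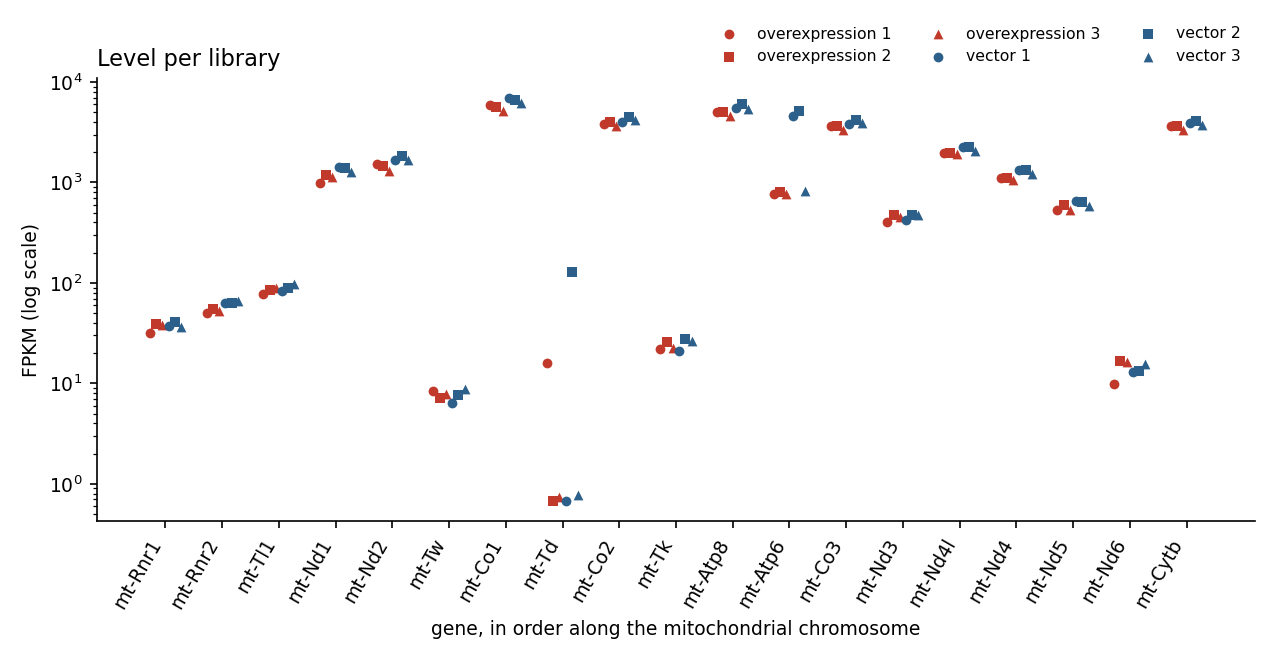
Level of 19 mitochondrially encoded genes in each of the 6 libraries, as FPKM on a log axis, in map order; the tRNA genes shown are the 3 that were tested and mt-Td. From mt-Co1 at 5134 to 6852 FPKM the protein genes range down to a median of 14.4 FPKM for mt-Nd6, with mt-Tw and 4 of the 6 libraries of mt-Td below it, and mt-Atp6 and mt-Td are the genes with libraries far from the others of their own group.

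Most of the measured heavy-strand protein genes were modestly lower in the overexpression libraries, and none passed the test. The filter on low counts kept 18 of the 37 genes (13 protein, 2 rRNA and 3 tRNA genes). The quasi-likelihood test of edgeR, adjusted over 14605 genes, called 0 of the 18 at 0.05, against 2.40% of all tested genes. Its smallest adjusted p among the 18 was 0.0547, for mt-Rnr2. At an unadjusted p under 0.05 it gave 12 of the 18 (11 protein genes and mt-Rnr2), all with lower values, against 17.0% of all tested genes in either direction and 8.71% lower. In 11 of the 18 genes (10 protein genes and mt-Rnr2) every overexpression library stood below every vector library, against 12.3% of all tested genes, and in 0 was every one above. Below 0 lay 16 of the 18 log2 fold changes, against 48.7% of all genes. DESeq2 with the same filter called 5 of the 18 (mt-Rnr2, mt-Nd4, mt-Nd2, mt-Nd1 and mt-Atp6), all lower, against 4.42% of all genes, and limma-voom called 0, against 2.38%. These genes are cut from common transcripts, so their counts are not independent of each other. In such bulk libraries, fewer mitochondrial transcripts per cell and another mix of cells cannot be told apart.

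**Figure D2:**
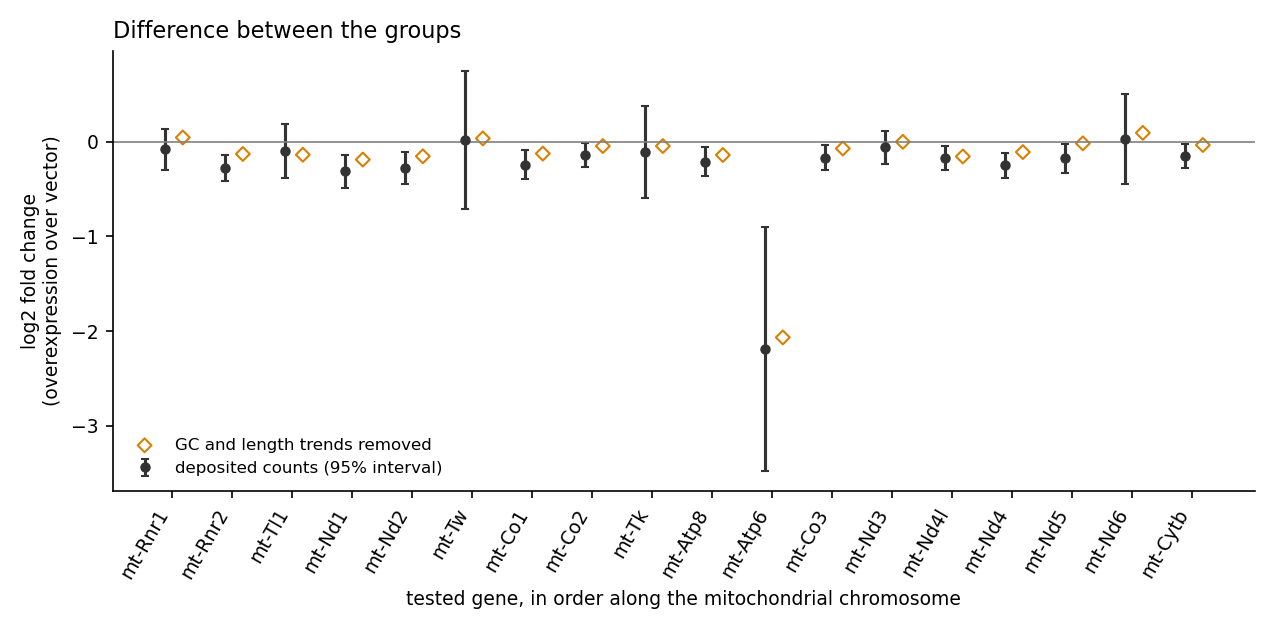
Log2 fold change (overexpression over vector, n = 3 libraries a group) of the 18 tested genes in map order; filled points are edgeR estimates with their 95% intervals and open diamonds the estimates after GC and length trends of each library were removed. Of the filled points 16 lie below 0, and mt-Atp6 stands apart at -2.19 with an interval from -3.48 to -0.90. The diamonds of the protein genes lie nearer to 0 than the filled points, except for mt-Nd6.

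Complex I, the NADH dehydrogenase, takes 7 of its subunits from this chromosome, and in 4 of them all overexpression libraries were below all vector libraries, against 12.3% of all tested genes. The level of mt-Nd1, a membrane subunit next to the quinone site, was 990.1, 1183 and 1132 FPKM in overexpression libraries 1 to 3 and 1422, 1392 and 1274 FPKM in vector libraries 1 to 3. The groups did not overlap, and its log2 fold change was -0.31 ± 0.08 (SE, edgeR adjusted p = 0.0896). For mt-Nd2, a proton-pumping membrane subunit, the values were 1529, 1461 and 1286 FPKM against 1685, 1815 and 1673 FPKM. Overexpression library 3 was lowest, and the log2 fold change was -0.28 ± 0.07 (edgeR adjusted p = 0.10). The proton-pumping subunit mt-Nd4 stood at 1109.7, 1100.4 and 1059.8 FPKM against 1333, 1337 and 1203 FPKM, a log2 difference of -0.25 ± 0.06 (edgeR adjusted p = 0.0692). Its partner on the same messenger, mt-Nd4l, had 1966, 1965 and 1918 FPKM against 2241, 2262 and 2057 FPKM, with -0.17 ± 0.05 on the log2 scale (edgeR adjusted p = 0.17). In both of these genes vector library 3 lay nearest to the overexpression libraries. Without overexpression library 1, edgeR called mt-Nd2 (adjusted p = 0.0420) and mt-Nd4 (adjusted p = 0.0499), at -0.34 and -0.26 on the log2 scale. In that setting 5.42% of all genes were called, against 2.40% with all libraries. Neither gene was called by edgeR with any other library left out.

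The other 3 complex I genes overlapped between the groups. In mt-Nd5, the largest of them and also a proton-pumping subunit, the levels were 537, 595 and 532 FPKM against 652, 636 and 581 FPKM. Overexpression library 2 lay above vector library 3 there, and the log2 fold change was -0.17 ± 0.07 (edgeR adjusted p = 0.25). For mt-Nd3, a small membrane subunit, they were 405, 470.1 and 453 FPKM against 426, 479.9 and 473 FPKM, a log2 difference of -0.06 ± 0.08. The light-strand gene mt-Nd6 had 99, 184 and 161 counts against 143, 108 and 148 counts. Overexpression library 1 was the lowest of all 6 and library 2 the highest, and the log2 fold change was 0.03 ± 0.21. Per 1000 counts on the heavy-strand protein genes other than mt-Atp6, mt-Nd6 had 0.199 to 0.358 counts in the overexpression libraries. The vector libraries had 0.235 to 0.294, so the groups overlapped in this ratio. It rests on mt-Nd6 alone after poly(A) selection and does not give the ratio of the strands.

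In complex IV, cytochrome c oxidase, all 3 mitochondrially encoded subunits had every overexpression library below every vector library, as did 12.3% of all tested genes. Levels of mt-Co1 were 5874, 5674 and 5134 FPKM against 6852, 6651 and 6130.3 FPKM, and its log2 fold change was -0.24 ± 0.07 (SE, edgeR adjusted p = 0.12). The copper-binding subunit mt-Co2 had 3837, 4031 and 3678 FPKM against 4035, 4433 and 4216 FPKM. Overexpression library 2 nearly met vector library 1 there, and the log2 fold change was -0.14 ± 0.05 (edgeR adjusted p = 0.25). For mt-Co3, the third core subunit, the values were 3662, 3612 and 3344 FPKM against 3776, 4178 and 3945 FPKM, with a log2 fold change of -0.17 ± 0.06 (edgeR adjusted p = 0.19). The single mitochondrially encoded subunit of complex III, cytochrome b (mt-Cytb), stood at 3612, 3664 and 3359.85 FPKM against 3895, 4114 and 3757 FPKM, a log2 difference of -0.15 ± 0.05 (edgeR adjusted p = 0.22). Library 3 was the lowest overexpression library in each of these 4 genes.

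The ATP synthase genes mt-Atp8 and mt-Atp6 lie on one messenger and gave different pictures. The level of mt-Atp8, a small membrane subunit, was 5067, 5019 and 4552 FPKM in the overexpression and 5453, 6041 and 5386 FPKM in the vector libraries, so the groups did not overlap. Its log2 fold change was -0.21 ± 0.07 (SE, edgeR adjusted p = 0.17), of the size seen in the other heavy-strand genes. For mt-Atp6, the subunit that forms part of the proton channel, the values were 766, 800.2 and 761 FPKM against 4589.9, 5168 and 815 FPKM. Vector libraries 1 and 2 were high, and vector library 3 lay close to the overexpression libraries. The log2 fold change of mt-Atp6 was -2.19 ± 0.56, with a 95% interval from -3.48 to -0.90 and an edgeR adjusted p of 0.0989. Without vector library 3 it was -2.66, with an edgeR adjusted p of 2.6e-05, and without vector library 1 or 2 it was -1.95 or -1.81, with adjusted p of 0.25 and 0.27.

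The split of mt-Atp6 among the vector libraries was not shared by the other members with a mean of 1000 or more counts. In CPM the highest vector library of mt-Atp6 was 6.34 times its lowest, while its 3 overexpression libraries differed by at most 1.05 times. Over the other members with a mean of 1000 or more counts, this ratio was 1.05 to 1.13 within the vector group and at most 1.19 within the overexpression group. A span over 4-fold among the vector libraries, a bound chosen after the values of mt-Atp6 were seen, was found in 9 genes, mt-Atp6 among them. That was 0.193% of the 4673 genes with a mean of 1000 or more counts. The same span among the overexpression libraries was found in 13 of the 4673. By count mt-Atp6 ranked 11 and 10 among all genes in vector libraries 1 and 2, and between 199 and 224 in the other 4 libraries. Its neighbours showed no such split. The FPKM ratio of mt-Atp6 to mt-Atp8 was 0.151, 0.159 and 0.167 in the overexpression and 0.842, 0.855 and 0.151 in the vector libraries, whereas that of mt-Co3, which follows mt-Atp6 with 1 shared base, to mt-Atp8 was 0.692 to 0.735 in all 6.

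A copy of mt-Atp6 in the nuclear genome shares its sequence. Nuclear copies of 7 of the protein genes lie side by side on chromosome 1, between positions 24650616 and 24655278 as the deposited table gives them. One of them, Gm10925, equals mt-Atp6 over 678 of its 681 bases without a mismatch, and the first 60 bases of each are shown with the start codon in capitals.
mt-Atp6: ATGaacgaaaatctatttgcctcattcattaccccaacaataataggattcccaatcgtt
Gm10925: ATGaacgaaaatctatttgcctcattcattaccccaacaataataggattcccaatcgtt
A read that lies within the aligned bases fits both genes, and the rule by which the authors assigned such reads is not known from the labels. Gm10925 had 8844, 8865 and 7185 counts in the overexpression and 10254, 8595 and 8845 counts in the vector libraries, with no split among the latter. Its FPKM was 15.6% to 87.3% of that of mt-Atp6. Over the other 4 copies without a mismatch, the range was 12.7% to 18.2%. The ratio of mt-Atp6 to Gm10925 was 1.15, 1.29 and 1.38 in the overexpression libraries and 6.40, 6.33 and 1.15 in the vector libraries. In the other 4 pairs without a mismatch this ratio was 5.49 to 7.86 over all libraries, a range that holds mt-Atp6 in vector libraries 1 and 2 but not in the other 4 libraries. The cause of the split was not tested. With the counts of each chromosome 1 copy added to its mitochondrial gene, the log2 fold change of mt-Atp6 was -1.63 (edgeR adjusted p = 0.10) and the median of the 13 protein genes was -0.17.

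**Figure D3:**
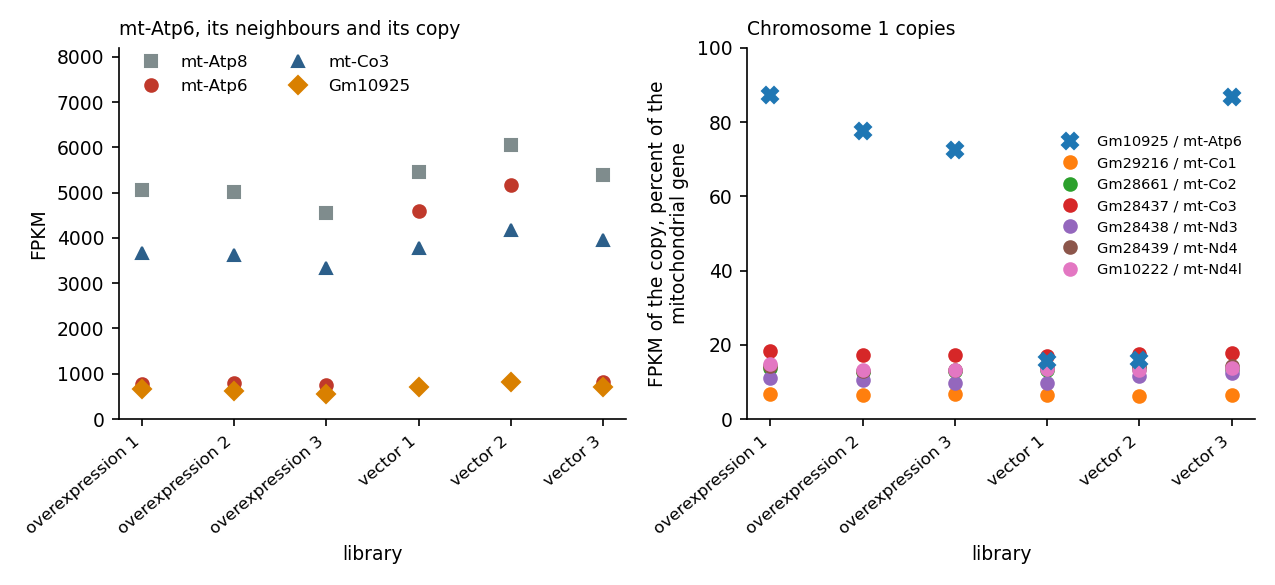
Left, FPKM of mt-Atp6, of mt-Atp8 and mt-Co3 on either side of it, and of its chromosome 1 copy Gm10925, in each library; right, FPKM of each of the 7 chromosome 1 copies as a percent of its mitochondrial gene. In vector libraries 1 and 2 mt-Atp6 stands at 4589.9 and 5168 FPKM against 761 to 815 FPKM elsewhere, and Gm10925 is between 15.6% and 87.3% of mt-Atp6 while the other copies are at 18.2% or less.

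The remaining copies stood in a narrow ratio to their mitochondrial genes. Gm28439 (mt-Nd4, 876 bases), Gm10222 (mt-Nd4l, 294 bases), Gm28437 (mt-Co3, 783 bases) and Gm28661 (mt-Co2, 681 bases) had no mismatch over the aligned bases. Over 345 aligned bases Gm28438 differed from mt-Nd3 by 1 base, T3C. Gm29216 aligned with mt-Co1 over 483 bases only, from base 10 of the copy and base 1063 of the 1545 of mt-Co1. Within that stretch it differed by 1 base, A1066T. Positions are counted from 1 at the 5′ end of the mitochondrial gene, with the mitochondrial base first. The start of mt-Nd3 and of Gm28438 is shown with the differing base in capitals.
mt-Nd3: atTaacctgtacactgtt
Gm28438: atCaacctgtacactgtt
Levels of Gm28438 were 9.65% to 12.3% of those of mt-Nd3, and levels of Gm29216 were 6.25% to 6.71% of those of mt-Co1. All 7 copies had a log2 fold change below 0, from -0.31 to -0.15 with a median of -0.17. In 4 of them every overexpression library lay below every vector library (12.3% of all tested genes). Reads in stretches without a mismatch fit both a copy and its mitochondrial gene, so the copies are not an independent measure. edgeR called 0 of the 7 (2.40% of all genes), with 4 at an unadjusted p under 0.05 (17.0%). Of the copies that differ more from their gene, Gm13340, 97.6% identical to mt-Co1, had 1960 to 3002 counts a library, and the others had at most 47.

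Of the rRNA genes, mt-Rnr2 had groups that did not overlap and mt-Rnr1 groups that overlapped. Levels of mt-Rnr2, the RNA of the large mitoribosomal subunit, were 50.1, 55.1 and 53.0 FPKM in the overexpression and 62.9, 62.5 and 65.5 FPKM in the vector libraries. The groups did not overlap, and the log2 fold change was -0.28 ± 0.06 (SE, edgeR adjusted p = 0.0547, DESeq2 adjusted p = 0.0238). For mt-Rnr1, the RNA of the small subunit, they were 32.0, 38.7 and 38.5 FPKM against 37.3, 41.2 and 36.6 FPKM, which overlap. Its log2 fold change was -0.08 ± 0.09, and it was 0.05 with GC and length trends removed and 0.00 without overexpression library 1. The FPKM ratio of mt-Rnr2 to mt-Rnr1 was 1.38 to 1.56 in the overexpression and 1.52 to 1.79 in the vector libraries, which overlap. Whether the rRNA genes differed from each other was not tested.

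Few of the 22 tRNA genes held more than a handful of counts. Mature tRNAs are short and end in CCA rather than in a poly(A) tail. At most 3 counts in any library were found for 16 of them, mt-Ts2 had none, and 12 had at least 1 count in every library. All 22 together held 1292 counts over the 6 libraries, of which 744 (57.6%) were on mt-Tl1, a leucine tRNA that directly joins the end of mt-Rnr2 to the start of mt-Nd1. The 3 tRNA genes with a mean of 10 or more counts are shown in full.
mt-Tl1: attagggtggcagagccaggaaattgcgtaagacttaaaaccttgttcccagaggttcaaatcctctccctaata
mt-Tk: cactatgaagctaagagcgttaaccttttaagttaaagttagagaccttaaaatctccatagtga
mt-Td: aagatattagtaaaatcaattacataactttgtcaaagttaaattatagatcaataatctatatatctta
In mt-Tl1 (chrM:2676-2750) the counts were 114, 133 and 129 against 131, 103 and 134, a log2 fold change of -0.09 ± 0.12 (SE) with overlapping groups. The lysine tRNA mt-Tk (chrM:7700-7764), between mt-Co2 and mt-Atp8, had 28, 35 and 28 against 29, 28 and 32 counts, a log2 fold change of -0.10 ± 0.21.

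The aspartate tRNA mt-Td (chrM:6942-7011), between mt-Co1 and mt-Co2, did not pass the filter. Its counts were 22, 1 and 1 in the overexpression and 1, 141 and 1 in the vector libraries, so 1 library of each group stood far above the rest. The cause was not tested. The tryptophan tRNA mt-Tw was tested at 8 to 11 counts a library, with a log2 fold change of 0.02 ± 0.32 and overlapping groups. The 8 tRNA genes of the light strand held 70 counts in all. One of them, mt-Te, had 6, 5 and 9 counts against 3, 1 and 3, with every overexpression library above every vector library in CPM. On the heavy strand mt-Tg had 1, 1 and 1 against 2, 1 and 1 counts, with every overexpression library below. Neither passed the filter, and these differences were not tested.

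Summed over the chromosome, mitochondrially encoded genes took a smaller share of the counts in the overexpression libraries. The share was 2.62%, 2.63% and 2.41% there and 3.21%, 3.33% and 2.80% in the vector libraries, with means of 2.55% ± 0.123 and 3.11% ± 0.276 (SD, n = 3). Without mt-Atp6 it was 2.56%, 2.57% and 2.36% against 2.90%, 2.97% and 2.75%, with means of 2.50% ± 0.122 and 2.87% ± 0.117. The groups did not overlap with or without mt-Atp6, and leaving that gene out lowered the difference from -0.563 to -0.376 percentage points. The rRNA genes took 0.0118% ± 0.000750 against 0.0137% ± 0.000187 of the counts, also without overlap, and the tRNA genes 0.000973% to 0.00103% against 0.000939% to 0.00189%, which overlap. The 7 chromosome 1 copies, whose reads can fit the mitochondrial genes as well, took 0.165% ± 0.0116 against 0.190% ± 0.00979.

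**Figure D4:**
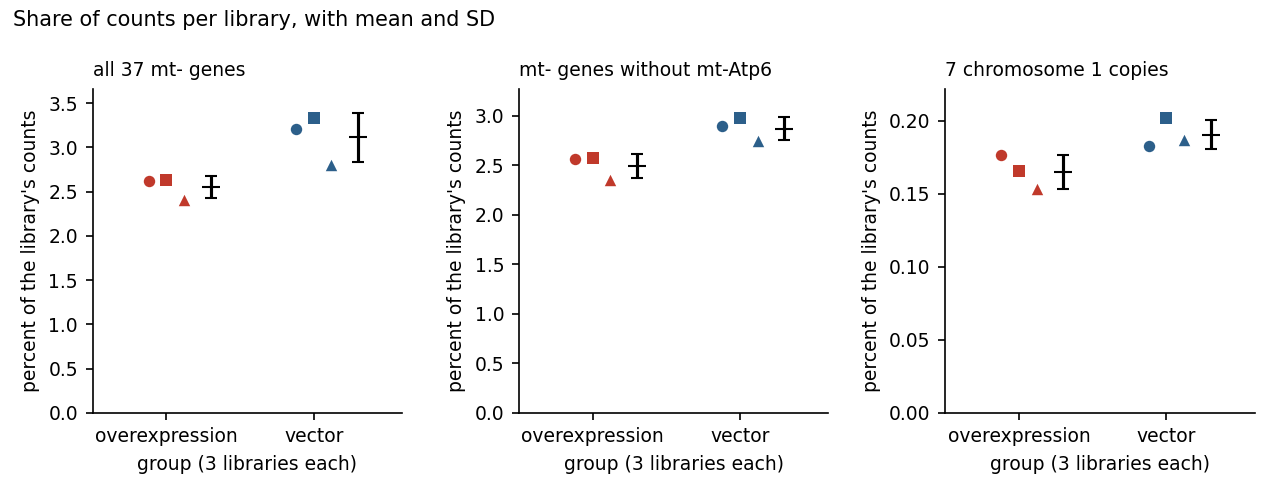
Share of each library's counts on all 37 genes, on all but mt-Atp6 and on the 7 chromosome 1 copies, with points for libraries 1 (circle), 2 (square) and 3 (triangle) and bars for the mean and SD of 3. In each panel the 3 overexpression points lie below the 3 vector points, and without mt-Atp6 the means are 2.50% and 2.87%.

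The shared difference was smaller once trends of the libraries with the base composition and length of genes were removed. Log2 fold changes of the 11004 genes at 5 CPM or more ran with GC content (Spearman's rho was 0.36) and against length (-0.22), as a description across genes that share the same 6 libraries. Mitochondrially encoded protein genes have 31.9% to 41.1% GC, against a median of 49.9% over those genes. The median log2 fold change of the 13 protein genes was -0.17, against 0.01 for all tested genes, and it was -0.11 once smooth trends of each library with GC and length were removed. After that step 11 of the 13 were below 0 and 2 had an unadjusted p under 0.05 (mt-Atp6 and mt-Nd2), against 16.2% of all genes. The smallest adjusted p of edgeR was then 0.11, and that of mt-Rnr2 was 0.48.

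Nuclear genes for the same complexes and for mitochondrial gene expression were described from 11 lists, 263 of whose members were tested. edgeR called 0 of the 263 (2.40% of all genes), with 23 (8.75%) at an unadjusted p under 0.05 against 17.0% of all genes. DESeq2 called 1, against 4.42% of all genes, and limma-voom 0, against 2.38%. The median log2 fold change of the 263 was 0.04. In 10 of the 263 every overexpression library was below every vector library, against 12.3% of all genes, and in 21 every one was above, against 11.4%. The DESeq2 call was Rrm2b, a ribonucleotide reductase subunit that supplies building blocks for mitochondrial DNA, at -0.33 on the log2 scale (adjusted p = 0.0367, edgeR adjusted p = 0.0623).

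The nuclear-encoded subunits of complexes I, III and IV and the ATP synthase, which assemble with the mitochondrially encoded ones, numbered 75 tested genes. Of these 59 had a log2 fold change above 0, with a median of 0.07. Below 0 lay 7 of 37 in complex I and 1 of 9 in complex III, against 48.7% of all tested genes. In complex IV it was 2 of 11, and in the ATP synthase 6 of 18. edgeR called 0 (2.40% of all genes) with 4 at an unadjusted p under 0.05 (17.0%). In 0 was every overexpression library below every vector library (12.3%). By complex, the medians were 0.08 over 37 genes of complex I, 0.08 over 9 of complex III, 0.06 over 11 of complex IV and 0.06 over 18 of the ATP synthase. The mitochondrially encoded partners had medians of -0.17 over the 7 genes of complex I and -0.17 over the 3 of complex IV. All these medians are from edgeR without removal of the trends with GC and length. Whether the nuclear and mitochondrial subunits differed from each other was not tested.

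For the machinery that makes mitochondrial RNA, list medians lay near 0 while single genes spread to either side. Log2 fold changes were -0.03 ± 0.06 for Tfam, which packages mitochondrial DNA and starts its transcription, 0.08 ± 0.08 for Polrmt, the mitochondrial RNA polymerase, and 0.02 ± 0.12 for Tfb2m, its initiation factor. They were -0.07 ± 0.06 for Lrpprc and 0.15 ± 0.14 for Slirp, partners that stabilise mitochondrial messengers, and -0.02 ± 0.06 for Pnpt1, an RNA-degrading enzyme (SE). The groups overlapped in each of these 6. The list of mitochondrial DNA transcription and maintenance had a median of 0.03 over 22 genes (-0.36 to 0.32). RNA processing and decay had 0.04 over 27 (-0.13 to 0.29). Mitochondrial ribosomal proteins had 0.06 over 78 (-0.54 to 0.26) and aminoacyl-tRNA synthetases 0.00 over 20 (-0.39 to 0.33). Regulators of mitochondrial biogenesis had a median of -0.02 over 14 genes, mitophagy 0.06 over 14, and mitochondrial fusion and fission -0.12 over 13, of which 11 were below 0 (48.7% of all genes) and 2 had every overexpression library below every vector library, near the 12.3% of all genes.

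**Figure D5:**
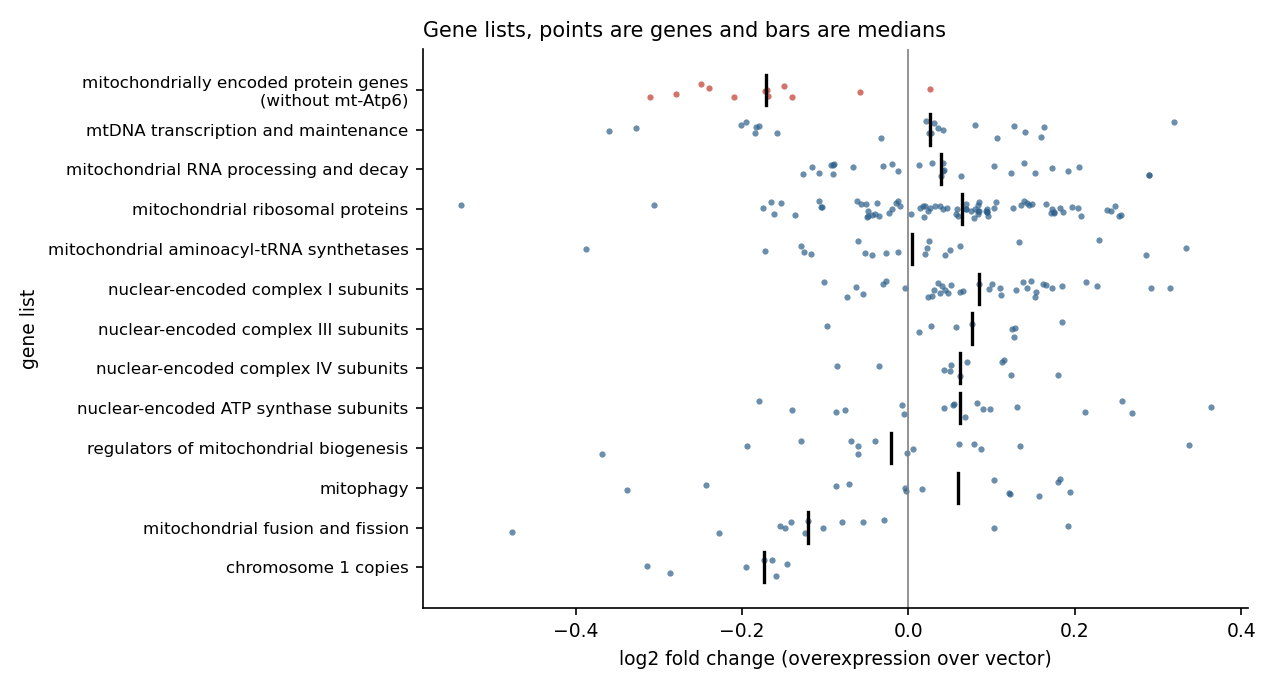
Log2 fold change (overexpression over vector) of the mitochondrially encoded protein genes without mt-Atp6, of the tested members of 11 lists of nuclear genes and of the 7 chromosome 1 copies; each point is a gene, its height within a list is arbitrary, and bars are medians. The bar of the mitochondrially encoded genes lies at -0.17, that of the chromosome 1 copies at -0.17, and that of fusion and fission at -0.12, while those of the other lists lie between -0.02 and 0.08. The copies share sequence with the mitochondrial genes and are not independent of them.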

How the data were processed

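The authors deposited one table with whole-number counts and FPKM values per gene for each library. Poly(A)-selected RNA was made into stranded paired-end libraries, per the labels' protocols. The submitters' processing notes name HISAT2, SAMtools 1.3.1, StringTie and the build GRCh38, whereas all 57180 identifiers are mouse Ensembl genes; the counting step and its strand setting: not given in the sources used here. The deposited FPKM used the full gene length for 36 of the 36 mitochondrially encoded genes with a count (within 1 base). The 525 genes without a symbol held 0.194% of the counts. Groups came from the sample titles.

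Deposited counts of all genes were fitted with edgeR 4.0.16 in R 4.3.3 (glmQLFit and glmQLFTest, TMM, filterByExpr with its defaults, a model of group alone), and p-values were adjusted by Benjamini-Hochberg over 14605 genes with a threshold of 0.05. DESeq2 1.42.0 and limma-voom (limma 3.58.1) were alternatives, run after the same filter, beside other scalings and filters, the replicate number as a block, trends with GC and length removed (known for 97.5% of tested genes) and each library left out. Addition of the chromosome 1 copies, leaving mt-Atp6 out of the median and robust dispersions were chosen after seeing the data. Printed CPM were scaled by the library total alone, and the overlap of groups in tested genes was judged on CPM scaled by TMM. Nuclear copies were found with blastn among GENCODE M21 transcripts. The pipeline was tested on simulated data, and its pass criteria were loosened after a first version of that test missed them.

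The 13 protein and 2 rRNA genes are named with values in every library, as are tRNA genes with a mean of 10 or more counts. Beside these, mt-Te and mt-Tg are named because their groups did not overlap. Of the nuclear lists, genes called by edgeR, DESeq2 or limma-voom on all 6 libraries, 6 set names, the copies and Snhg1 are named. Members and lists were chosen with earlier results of these data known. For that reason no p-value is given for the shares of counts, for which an exact permutation test had been planned.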

Additional observations from a re-analysis of the deposited data

How the results depend on the processing

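Where edgeR called 0 of the 18 mitochondrially encoded genes, DESeq2 called 5 (4 of them protein genes), robust dispersions 1 (mt-Rnr2), and leaving out each library in turn 0 to 2 of all members and 0 to 2 of the protein genes. The 2 calls came without overexpression library 1 (mt-Nd4 and mt-Nd2, with 5.42% of all genes called) and a single one without vector library 3 (mt-Atp6, adjusted p = 2.6e-05). The replicate numbers did not pair the libraries (correlations of same-numbered libraries 0.04, -0.09 and -0.03); with the replicate block edgeR called 163 genes in place of 350 (1.12%), and 1 member, the protein gene mt-Co1 (adjusted p = 0.0428). The nuclear lists went from 0 calls to 1 with DESeq2 and to 0 to 7 with a library left out, 7 being without overexpression library 1. The median of the protein genes, -0.17, became -0.11 with GC and length trends removed and -0.11 with the replicate block added to that, and ran from -0.23 to -0.15 with a library left out. Of 323 alternative values for single genes 12 changed sign: mt-Nd3 to 0.00016 (trends), mt-Nd6 to -0.0067 (limma-voom), -0.0066 (replicate block) and mt-Rnr1 to 0.046 (trends) and 0.038 (trends with block). The others came from leaving out a library, which gave -0.11 to 0.23 for mt-Nd6, -0.13 to 0.0023 for mt-Rnr1 and -0.11 to 0.14 for mt-Tw. The causes were not tested. The difference in the share of counts stayed below 0 in every alternative, from -0.72 to -0.46 percentage points with a library left out, -0.44 to -0.31 without mt-Atp6, and -0.0022 to -0.0015 for the rRNA genes. At a median of 10 counts for mt-Tw and under 4 counts for most tRNA genes, small differences there are not detectable at this depth.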
